A study of Homo sapiens with 6 samples.

Results

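The genes described are 32 nuclear genes of pyruvate oxidation, the tricarboxylic acid (TCA) cycle and glutamine use, among the 19330 genes of the count table. They are a list of gene symbols with no threshold on a measured value, which left out succinate dehydrogenase and was drawn up with earlier results of these data known. They were ordered by step into 11 genes of pyruvate entry, 12 of the TCA cycle, 4 of anaplerosis and glutamine use and 5 for cytosolic counterparts of mitochondrial enzymes. The study used CRISPR/Cas9 to deplete *N6AMT1*, a methyltransferase gene, in K562, a human cell line of chronic myelogenous leukemia with erythroid features. Cells were transduced with pLentiCRISPRv2, a lentivirus that carries Cas9 and the guide, with either sgRNAs against *N6AMT1* (sgN6AMT1) or control sgRNAs named in the labels as OR11A1 and OR2M49 (sgCtrl). Both conditions were selected for 48 h with puromycin (10 mg/ml in the labels). The paper's methods give a lower puromycin dose and name the second control gene *OR2M4*. Both conditions were grown in the same medium with glucose and added pyruvate, and were collected at day 10 after infection as 3 libraries each. No isolation of single clones is described, and the sources used here do not give which sgRNA each library received.

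Pyruvate made in the cytosol enters mitochondria through the mitochondrial pyruvate carrier and is oxidized to acetyl-CoA by the pyruvate dehydrogenase (PDH) complex, which is switched off by PDH kinases and on by PDH phosphatases. The TCA cycle condenses acetyl-CoA with oxaloacetate and oxidizes the product back to oxaloacetate, which yields NADH for the respiratory chain. Pyruvate carboxylase and glutamine-derived glutamate refill the cycle, and cytosolic isozymes catalyze several of the same reactions outside mitochondria for NADPH supply and redox shuttles.

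In edgeR's quasi-likelihood test over all genes, 1 member fell and 1 rose in sgN6AMT1. *OGDH*, the E1 subunit of the 2-oxoglutarate dehydrogenase complex, fell by 0.62 on the log2 scale, and *IDH3B*, a regulatory subunit of the NAD-dependent isocitrate dehydrogenase, rose by 0.55. These 2 calls were 6.90% of the 29 members tested, against 9.85% of all 8324 genes tested (5.09% higher and 4.76% lower), so the share was near that of the background. With DESeq2, 2 members (*OGDH* and *PDHA1*) were called, against 6.7% of all genes it tested. Leaving out 1 library changed the count of called members. It was 0 without sgCtrl replicate 1, sgCtrl replicate 2, sgN6AMT1 replicate 1 or sgN6AMT1 replicate 2. It was 1 (*PDHA1*) without sgN6AMT1 replicate 3 and 3 without sgCtrl replicate 3. The count over all genes moved between these fits as well, with its range given at the end. The counts of members in these fits are therefore not read as a property of the members. A gene counted as called where its Benjamini-Hochberg adjusted p over all genes tested was under 0.05, and levels are counts scaled to library size with TMM factors (cpm) unless stated otherwise. They are shares of the RNA of a bulk culture, so fewer cells with a transcript and less transcript per cell cannot be told apart.

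The libraries held 742470 to 866894 counts in sgCtrl and 959319 to 5526904 in sgN6AMT1, of which only sgN6AMT1 replicate 1 was close to the control depth. A count of 0 allowed a level of up to 0.543 to 4.04 cpm (3 counts, counting error only). *N6AMT1* received 6, 5 and 9 counts in sgCtrl and 0, 18 and 16 in the deeper sgN6AMT1 libraries, which was 8.08 ± 2.31 cpm against 2.40 ± 2.10 cpm of total counts (SD, n = 3). The conditions did not overlap, for which the exact permutation p of 0.1, two-sided, is as small as this design can give. All 10 listed K562 markers had counts in every library, with a summed level of 11640 to 18485 cpm of total counts in sgCtrl and 18822 to 34121 in sgN6AMT1. Globins made up most of this sum. By sign, 5 of these markers lay above and 5 below a log2 fold change of 0. The globin genes *HBE1*, *HBG1* and *HBG2* rose in sgN6AMT1 (3 of 10, against 5.09% of all genes called higher), and none was called lower. The conditions did not overlap for *HBE1* but did for *HBG1* and *HBG2*. Their sgCtrl replicate 3 (7873 and 7547 cpm) reached sgN6AMT1 replicate 1 (7867 and 7538 cpm). *TAL1* had a log2 fold change of 1.02 with overlap and an adjusted p of 0.0504 in edgeR. *HBZ* and *TFRC* lay lower in sgN6AMT1 without overlap, at log2 fold changes of -0.39 and -0.25 (adjusted p-values of 0.116 and 0.300 in edgeR). The lymphoid markers summed to 11.5 to 18.9 cpm against 13.9 to 20.4, mostly from *CD3D*, with *MS4A1* at 0 in every library. The epithelial markers summed to 140.1 to 171 cpm against 94.03 to 155. Nearly all of this came from *EPCAM* (104 to 147 counts in sgCtrl and 149 to 644 in sgN6AMT1). *CDH1* had 0 or 1 count in each library, and *KRT5*, *KRT17*, *KRT6A* and *CDKN2A* were at 0 in every library. The share of tested counts on the mt-DNA-encoded open reading frames was 3.25% to 5.33% in sgCtrl and 0.468% to 1.94% in sgN6AMT1. In a fit without these reading frames *OGDH*, *IDH3B* and *PDHA1* were called. *PDHA1* had a log2 fold change of -0.47 with and without them, with adjusted p-values of 0.0545 and 0.0490 in edgeR. The share of all genes called in that fit is not given here. The part of the marker levels in the members' values was not tested.

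Taken as 1 quantity, the 29 members received 0.407% to 0.414% of the tested counts in sgCtrl and 0.379% to 0.390% in sgN6AMT1, without overlap. With the mt-DNA-encoded reading frames left out of the denominator, the shares were 0.421% to 0.436% and 0.383% to 0.394%. With the globin genes left out as well, they were 0.428% to 0.440% and 0.394% to 0.403%, so the order of the conditions held under each denominator. The median log2 fold change of the members was -0.11, against 0.01 over all genes tested, and 17 of 29 (58.6%) had a negative log2 fold change, against 49.2% of all genes negative and 50.8% positive. By the unadjusted p, 8 members (27.6%) were under 0.05, against 26.2% of all genes. By library values, 11 members (37.9%) had no overlap between the conditions, against 29.2% of all genes. Of these, 3 lay higher in sgN6AMT1, where the share over all genes was 15.1%, and 8 lay lower (27.6%), where it was 14.1%. The plot of levels by library shows all tested members side by side.

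**Figure D1:**
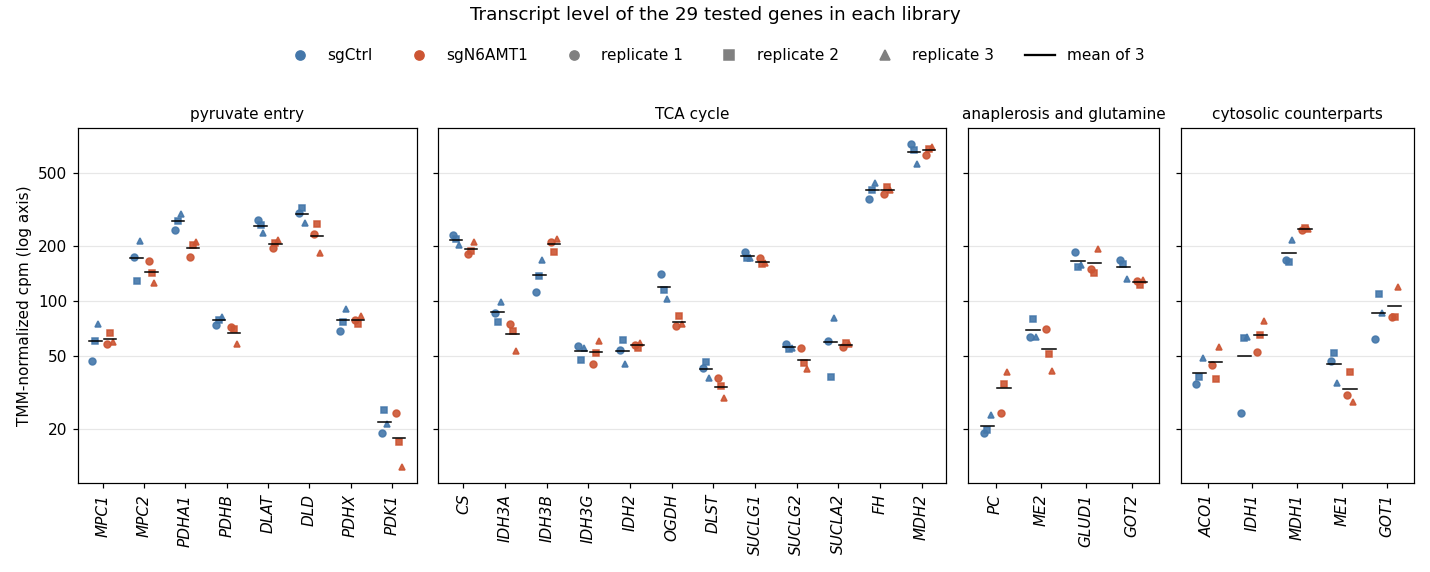
Level of the 29 tested members in each library, on a log axis of TMM-normalized cpm, with 1 panel per step, libraries as points (blue sgCtrl, orange sgN6AMT1, shape by replicate) and means of 3 as lines. *OGDH* lies lower in each sgN6AMT1 library (72.7 to 82.7 cpm) than in each sgCtrl library (103 to 140 cpm), *IDH3B* lies higher, and *MDH2* and *FH* overlap.

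By step, the summed level of the 8 tested genes of pyruvate entry was 1197, 1222 and 1276 cpm in sgCtrl replicates 1 to 3 and 994, 1041 and 941 cpm in sgN6AMT1, with a change in the mean of -19.5%. The 12 genes of the TCA cycle summed to 2044 ± 44.02 cpm against 2011 ± 41.8 cpm (SD, n = 3), a change of -1.63% with overlapping libraries. Anaplerosis and glutamine genes summed to 406 ± 30.4 cpm against 375 ± 27.0 cpm, also with overlap. The cytosolic counterparts were the step with a higher sum in each sgN6AMT1 library, at 451, 473 and 525 cpm against 335, 422 and 448 cpm, a change of 20.3%, which was 10.99% without sgCtrl replicate 1, the lowest library. Median log2 fold changes had the same signs as the sums, with -0.29 for pyruvate entry, -0.08 for the TCA cycle, -0.14 for anaplerosis and glutamine and 0.18 for the cytosolic counterparts. These sums weigh abundant genes most and carry no test.

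Among the genes of pyruvate entry, none of the 8 tested passed the adjusted test, 6 had a negative log2 fold change (49.2% of all genes did), and 4, all of them PDH subunits, lay lower in every sgN6AMT1 library than in any sgCtrl library (14.1% of all genes did). *PDHA1*, which encodes the catalytic E1 alpha subunit and lies on chromosome X (19343893 to 19361718, plus strand), had 242, 273 and 297 cpm in sgCtrl and 173, 202 and 210 cpm in sgN6AMT1. Its libraries did not overlap, and its log2 fold change was -0.47 ± 0.15 (SE; 95% interval from -0.78 to -0.15) with an adjusted p of 0.0545 in edgeR, just outside the threshold. With DESeq2 the same gene was inside it, with an adjusted p of 0.0477, and it was called in 8 of the 17 alternative settings.

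*DLAT*, the E2 acetyltransferase that forms the core of the complex (chromosome 11, 112025408 to 112064404), had 274, 259.6 and 233 cpm in sgCtrl and 195, 206 and 213 cpm in sgN6AMT1. Its log2 fold change was -0.32 ± 0.14, with an unadjusted p of 0.0409 and an adjusted p of 0.168 in edgeR, and was -0.19 after correction for GC content and length. *DLD* encodes the E3 dihydrolipoamide dehydrogenase, which the PDH and 2-oxoglutarate dehydrogenase complexes share, and lies on chromosome 7 from 107891162 to 107931730. It was the most abundant gene of this step per length (83.7 cpm per kb of transcript in sgCtrl) and had 301, 321 and 266 cpm in sgCtrl and 229.7, 263 and 181 cpm in sgN6AMT1. The closest libraries were sgCtrl replicate 3 and sgN6AMT1 replicate 2, and the log2 fold change was -0.40 ± 0.16 with an adjusted p of 0.121. It was -0.25 without sgN6AMT1 replicate 3 and -0.26 after correction for GC content and length. Of the members, 13 share bases with another protein-coding gene. The last 7932 bases of *DLD* lie across from *LAMB1*, a laminin gene on the other strand that was called higher (log2 fold change 0.98, adjusted p = 0.0271), and the use of the strand in counting is not given in the sources used here.

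*PDHB*, the E1 beta subunit, had a mean of 77.9 cpm in sgCtrl and 66.35 cpm in sgN6AMT1, also without overlap, with a log2 fold change of -0.24 and an adjusted p of 0.434 in edgeR (-0.15 without sgN6AMT1 replicate 3 and -0.14 with thinning to equal depth). *PDHX*, the component that binds E3 to the core, gave 78.1 ± 10.7 cpm against 78.4 ± 3.73 cpm (SD, n = 3), and the 95% interval of its log2 fold change ran from -0.38 to 0.38. The 5 subunits together summed to 959, 1008 and 968 cpm in sgCtrl and to 747, 816 and 745 cpm in sgN6AMT1, a change in the mean of -21.4%. Within each library, the share of each subunit in this sum overlapped between the conditions. The share of *PDHX*, for example, was 7.14%, 7.55% and 9.26% against 10.4%, 9.17% and 11.05% (two-sided exact permutation test, p = 0.2). The plot of complexes sets these sums beside those of 2-oxoglutarate dehydrogenase.

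The carrier genes *MPC1* and *MPC2* had means of 60.4 and 171 cpm in sgCtrl and 61.3 and 144 cpm in sgN6AMT1, and both overlapped. *PDK1*, the kinase gene with the highest counts, had the lowest level per length of all tested members (1.55 cpm per kb). This rank rests on an annotated transcript of 14072 bases, and in cpm *PC* had a lower mean in sgCtrl (20.7 against 21.8). *PDK1* showed 18.8, 25.4 and 21.2 cpm in sgCtrl and 24.2, 16.8 and 12.3 cpm in sgN6AMT1. Its conditions overlapped, and the 95% interval of its log2 fold change was wide, from -1.09 to 0.29. The other 3 regulators among the members were too low to be tested. The kinase genes *PDK2* and *PDK3* received 2, 0 and 2 counts and 0, 0 and 0 counts in sgCtrl, and 2, 5 and 5 counts and 0, 0 and 6 counts in sgN6AMT1. The phosphatase gene *PDP1* received 3, 1 and 3 counts and 1, 13 and 15 counts. The raw counts cannot be compared directly, since sgN6AMT1 replicates 2 and 3 were several times deeper. With so few counts in the shallower libraries, a change of these 3 genes was not detectable. Without a filter on low counts, the log2 fold changes of *PDK2*, *PDK3* and *PDP1* were -0.41 ± 1.11, 3.48 ± 2.82 and -0.05 ± 0.81 (SE).

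**Figure D2:**
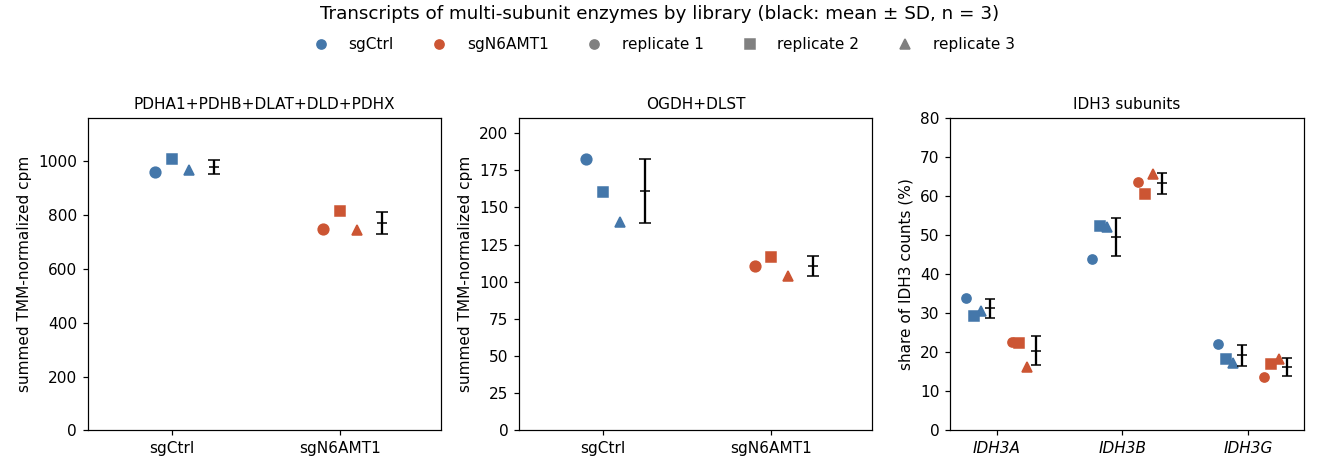
Summed TMM-normalized cpm of the 5 PDH subunits (left) and of *OGDH* and *DLST* (middle), and the percentage of *IDH3A*, *IDH3B* and *IDH3G* counts on each subunit (right), with libraries as points and the mean ± SD of 3 in black. The PDH sums are 959 to 1008 cpm in sgCtrl and 745 to 816 cpm in sgN6AMT1, and the *IDH3B* share is 43.9% to 52.4% against 60.5% to 65.7%.

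Both calls belonged to the TCA cycle. *OGDH* (chromosome 7, 44606572 to 44709066, plus strand) had 139.8, 114 and 103 cpm in sgCtrl and 72.7, 82.7 and 74.3 cpm in sgN6AMT1. Every sgN6AMT1 library lay below every sgCtrl library, and the spread in sgN6AMT1 was narrow (76.6 ± 5.36 cpm against 119 ± 19.0 cpm; SD, n = 3). The log2 fold change was -0.62 ± 0.18 (95% interval from -0.99 to -0.25), with an adjusted p of 0.0326 in edgeR and 0.0352 in DESeq2. It was called in 11 of 17 alternative settings, with log2 fold changes between -0.72 and -0.50 and adjusted p-values between 0.00289 and 0.152. It was called in 1 of the 6 fits that left out 1 library, and with sgN6AMT1 replicates 2 and 3 thinned to the depth of the other libraries its adjusted p was 0.0845. *DLST*, the E2 subunit of the same complex and the least abundant gene of the cycle per length (15.03 cpm per kb), had 43.0, 46.1 and 37.7 cpm in sgCtrl and 37.9, 34.3 and 29.3 cpm in sgN6AMT1. The conditions met at sgCtrl replicate 3 and sgN6AMT1 replicate 1, and the adjusted p was 0.371. Together *OGDH* and *DLST* summed to 183, 160.4 and 140.3 cpm in sgCtrl and 111, 117 and 104 cpm in sgN6AMT1.

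The NAD-dependent isocitrate dehydrogenase, which makes 2-oxoglutarate, is built from a catalytic subunit (*IDH3A*) and the subunits encoded by *IDH3B* and *IDH3G*, and its 3 genes differed in their log2 fold changes. *IDH3B* (chromosome 20, 2658395 to 2664219, minus strand) had 112, 136 and 167 cpm in sgCtrl and 209.7, 184 and 216 cpm in sgN6AMT1. Each sgN6AMT1 library lay above each sgCtrl library, and the log2 fold change was 0.55 ± 0.17 (95% interval from 0.20 to 0.90; adjusted p = 0.0459 in edgeR). With DESeq2 the adjusted p was 0.0680, and the gene was called in 8 of 17 alternative settings, at log2 fold changes between 0.38 and 0.71, and in 1 of the 6 fits that left out 1 library. *NOP56*, a ribosome assembly gene that ends next to *IDH3B* on the other strand, had a log2 fold change of -0.16 (adjusted p = 0.499).

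*IDH3A* (chromosome 15, 78131498 to 78171945, plus strand) had 86.0, 76.1 and 97.8 cpm in sgCtrl and 74.8, 68.1 and 53.2 cpm in sgN6AMT1. It lay lower in every sgN6AMT1 library, by a narrow margin, with a log2 fold change of -0.43 ± 0.20 and an adjusted p of 0.169. *IDH3G* (chromosome X, 153785766 to 153794512, minus strand) had 56.4, 47.3 and 55.4 cpm against 45.3, 52.0 and 59.9 cpm, with full overlap and a 95% interval of the log2 fold change from -0.43 to 0.45. It shares 997 bases with *SSR4* on the other strand, which encodes a subunit of the translocon-associated complex and rose from 145 to 265 cpm (adjusted p = 0.00197).

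Shares of the 3 transcripts within a library do not depend on scaling between libraries. They were not corrected for length or for GC content (43.4%, 54.6% and 59.0% for *IDH3A*, *IDH3B* and *IDH3G*). With that correction the log2 fold changes of the 3 genes were -0.36, 0.39 and -0.20. *IDH3A* made up 33.9%, 29.3% and 30.5% of the IDH3 counts in sgCtrl and 22.7%, 22.4% and 16.2% in sgN6AMT1. *IDH3B* made up 43.9%, 52.4% and 52.2% against 63.6%, 60.5% and 65.7%. *IDH3G* made up 22.2%, 18.2% and 17.3% against 13.7%, 17.1% and 18.2%. The first 2 shares did not overlap between the conditions (exact permutation p of 0.1 each, two-sided, the lower limit of the design), while that of *IDH3G* did (exact p = 0.2). These shares were chosen after the values of the genes had been seen, and since they add up to the whole, a higher *IDH3B* share lowers the others by construction.

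The promoters of these 3 genes are shown because they encode subunits of 1 enzyme, of which only *IDH3B* was called. They are the 250 bases before the RefSeq gene start on the GRCh38.p14 build, 5′ to 3′ on the strand of the gene, at chr15:78149112-78149361 (plus strand) for *IDH3A*, chr20:2664217-2664466 (minus strand) for *IDH3B* and chrX:153794376-153794625 (minus strand) for *IDH3G*. The RefSeq starts of all 3 genes lie inside the GENCODE spans given above. The *IDH3A* window lies wholly within its span, and the *IDH3B* and *IDH3G* windows lie within theirs in part. Capitals mark matches on either strand to the motif of NRF1, to GGGCGG (SP1), CCGGAAG (ETS factors) or CCAAT (NFY).
IDH3A: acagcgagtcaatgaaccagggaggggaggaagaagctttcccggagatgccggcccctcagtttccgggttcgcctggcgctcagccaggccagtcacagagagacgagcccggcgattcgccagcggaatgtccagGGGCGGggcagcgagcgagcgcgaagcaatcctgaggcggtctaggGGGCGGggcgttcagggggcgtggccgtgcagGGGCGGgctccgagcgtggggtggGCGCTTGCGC
IDH3B: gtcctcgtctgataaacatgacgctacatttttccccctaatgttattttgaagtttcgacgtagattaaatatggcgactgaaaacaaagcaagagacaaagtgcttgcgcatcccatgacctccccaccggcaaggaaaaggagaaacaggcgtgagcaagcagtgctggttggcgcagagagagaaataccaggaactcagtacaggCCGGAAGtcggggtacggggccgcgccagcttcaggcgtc
IDH3G: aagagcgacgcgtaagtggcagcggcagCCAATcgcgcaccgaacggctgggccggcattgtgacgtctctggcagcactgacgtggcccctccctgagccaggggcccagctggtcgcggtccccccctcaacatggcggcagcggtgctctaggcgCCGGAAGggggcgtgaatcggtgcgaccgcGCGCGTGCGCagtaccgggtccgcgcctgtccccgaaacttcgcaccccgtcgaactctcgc
The *IDH3A* window held 3 matches to the SP1 motif and 1 to the NRF1 motif, with a GC content of 70.0%. The *IDH3B* window, with a GC content of 51.6%, held 1 ETS match. *IDH3G* held 1 match each to the CCAAT, ETS and NRF1 motifs (GC content 70.4%).

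Over the 30 members with a RefSeq promoter entry (*OGDH* and *PDP1* had none), the SP1 motif was present in 73.3%. This was against 76.2% of 6497 tested genes with an entry and 46.2% of all 27305 genes with an entry. A gene counted where any of its windows held the motif. The NRF1 motif was present in 16.7%, against 14.5% and 6.20%. CCAAT was present in 18 of the 30 members, against 42.6% and 37.0%, and the ETS motif in 16.7%, against 22.6% and 10.2%. No member held AAGATGGC, the YY1 motif, which was present in 2.60% of the tested genes. The motif of estrogen-related receptors, TCAAGGTCA, was also in no member and in 0.139% of the tested genes. For GATA factors, AGATAAG was in no member and in 1.79% of the tested genes. A match describes the letters of this window and not the binding of a factor.

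No difference passed the test for the remaining genes of the cycle. *MDH2*, the mitochondrial malate dehydrogenase and the most abundant member per length (297 cpm per kb in sgCtrl), had 716, 665 and 555 cpm in sgCtrl and 625, 671 and 688 cpm in sgN6AMT1. Fumarase (*FH*), second at 223.5 cpm per kb, had means of 400.3 and 401.1 cpm. Both conditions overlapped for each gene, and the 95% intervals of the log2 fold change were -0.27 to 0.35 for *MDH2* and -0.29 to 0.30 for *FH*. Citrate synthase (*CS*), which starts the cycle, had means of 215 and 192 cpm (adjusted p = 0.534). Of the succinyl-CoA ligase genes, *SUCLG1*, the subunit common to both forms of the enzyme, had 184, 172 and 170.9 cpm against 170.7, 159 and 161 cpm. The conditions touched without overlapping (log2 fold change -0.11, adjusted p = 0.694). *SUCLG2* and *SUCLA2* set the GTP or ATP specificity of the ligase, and *IDH2* is the NADP-dependent mitochondrial isocitrate dehydrogenase. These 3 genes had log2 fold changes of -0.26, -0.05 and 0.10, with adjusted p-values of 0.459, 0.929 and 0.812 in edgeR.

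**Figure D3:**
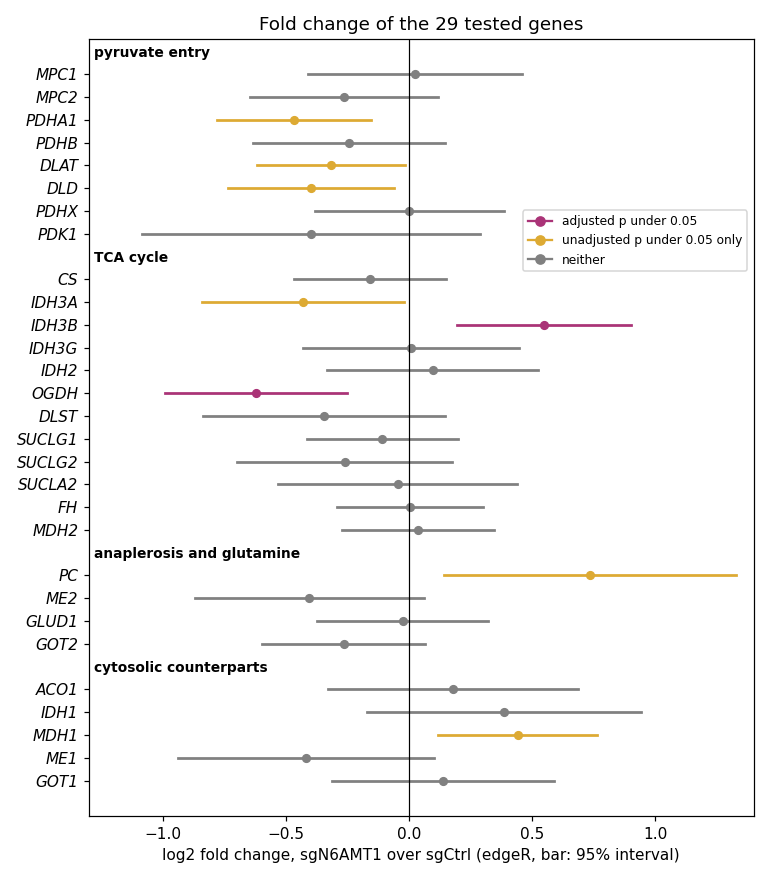
Log2 fold change of sgN6AMT1 over sgCtrl for the 29 tested members with its 95% interval from edgeR, ordered by step. *OGDH* (-0.62) and *IDH3B* (0.55) passed the adjusted threshold, 6 more members had an unadjusted p under 0.05, and 21 intervals of the 27 uncalled members hold 0.

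Among the genes that refill the cycle, *PC*, which carboxylates pyruvate to oxaloacetate, had a positive log2 fold change that did not pass the test. *PC* (chromosome 11, 66848417 to 66958386, minus strand) had 18.8, 19.6 and 23.6 cpm in sgCtrl and 24.2, 34.9 and 40.6 cpm in sgN6AMT1. Its lowest sgN6AMT1 library lay next to its highest sgCtrl library, and the log2 fold change of 0.74 ± 0.28 had an adjusted p of 0.106 in edgeR and 0.252 in DESeq2. These levels rested on 14 to 23 counts in the 4 shallower libraries, and with thinning to equal depth the log2 fold change was 0.48. It was the least abundant gene of this step (4.80 cpm per kb). *GOT2*, the mitochondrial aspartate aminotransferase and the most abundant gene of the step per length (62.7 cpm per kb), had 167, 158 and 131 cpm in sgCtrl and 127.5, 122 and 129.6 cpm in sgN6AMT1. The conditions were separated by a small gap, and the adjusted p was 0.301. Glutamate dehydrogenase (*GLUD1*), which makes 2-oxoglutarate from glutamate, had 185, 153 and 156 cpm against 149, 142 and 192 cpm and overlapped. Its counts are uncertain to the extent that reads were split with its near-identical copy *GLUD2*. *ME2*, the mitochondrial malic enzyme, had means of 68.8 and 54.1 cpm (log2 fold change -0.40, adjusted p = 0.258), and its log2 fold change was -0.23 after correction for GC content and length.

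Of the 5 cytosolic counterparts, 4 had a positive log2 fold change and none passed the adjusted test. *MDH1*, the cytosolic malate dehydrogenase of the malate-aspartate shuttle (chromosome 2, 63588609 to 63607197, plus strand), was closest to the threshold, with 167, 161.5 and 215 cpm in sgCtrl and 242, 249 and 246 cpm in sgN6AMT1. The sgN6AMT1 libraries lay within a few cpm of each other and above each sgCtrl library, and the log2 fold change was 0.44 ± 0.15 (95% interval from 0.12 to 0.76; adjusted p = 0.0742). *MDH1* lies within the span of *WDPCP* on the other strand, which was too low to be tested. As a share of *MDH1* and *MDH2* counts, *MDH1* made up 18.9%, 19.6% and 27.9% in sgCtrl and 27.9%, 27.0% and 26.3% in sgN6AMT1, so within libraries the conditions overlapped (two-sided exact permutation test, p = 0.3).

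*IDH1*, the cytosolic NADP-dependent isocitrate dehydrogenase, had 24.2, 62.3 and 63.7 cpm in sgCtrl and 52.7, 65.0 and 77.1 cpm in sgN6AMT1, with sgCtrl replicate 1 apart from the other libraries. Its log2 fold change was 0.39, and 0.07 without that library. *ACO1*, the cytosolic aconitase and iron regulatory protein, was the lowest of this step (5.43 cpm per kb), with 34.9, 38.1 and 48.3 cpm against 44.3, 37.4 and 56.0 cpm. *GOT1*, the cytosolic aspartate aminotransferase, and *ME1*, the cytosolic malic enzyme, had log2 fold changes of 0.14 and -0.42 (the latter -0.27 without sgN6AMT1 replicate 3), and both overlapped. The shares of *IDH1*, *GOT1* and *ME1* within their isozyme pairs, and of *SUCLA2* against *SUCLG2*, overlapped between the conditions as well, with exact permutation p-values of 0.7, 0.5, 0.9 and 0.7. The standard errors of the members' log2 fold changes were 0.14 to 0.33, and the 95% interval lay between -1 and 1 for 25 of the 27 tested members that were not called.

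Fold changes in these libraries moved with transcript GC content, which is given beside the members because their GC contents differ. Over nuclear genes tested, the median log2 fold change was -0.14, -0.07, 0.02, 0.11 and 0.18 in 5 bins of equal size from the lowest to the highest GC content. The members' medians were -0.40, -0.12, -0.11, 0.04 and 0.37 in the same bins, with 5, 10, 7, 5 and 2 genes. *OGDH* (56.3% GC) lay in bin 4, against the direction of that bin, whereas *IDH3B* (54.6%) in bin 4 and *PC* (61.1%) in bin 5 had the sign of theirs. After correction of each library for GC content and length, *OGDH*, *PDHA1* and *MDH1* were called, and *IDH3B* was not (log2 fold change 0.39, adjusted p = 0.112). The share of all genes called in this fit is not given here, so these calls have no background beside them.

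**Figure D4:**
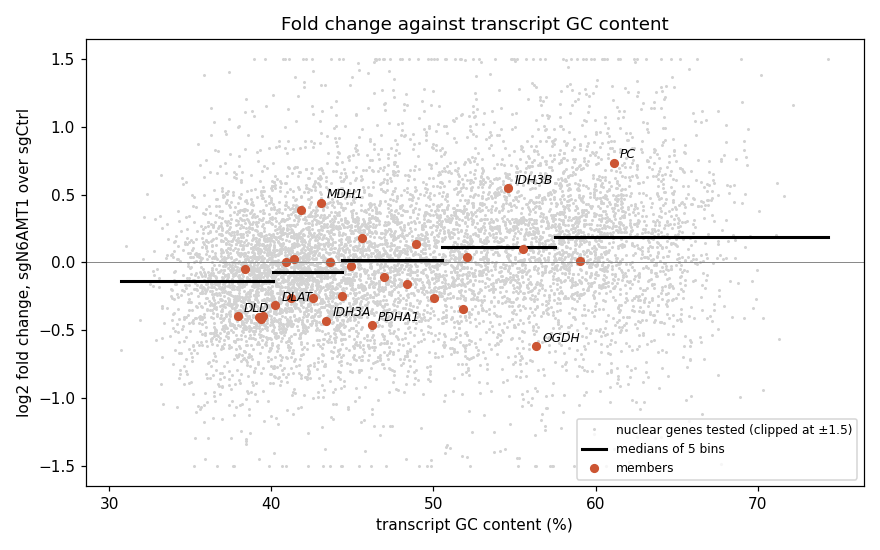
Log2 fold change of sgN6AMT1 over sgCtrl against the GC content of the transcript in percent, for nuclear genes tested (grey) and members (orange), with the medians of 5 bins of GC content as black lines. The medians run from -0.14 to 0.18, and *OGDH* lies below and *IDH3B* above the median of bin 4.

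Of 42 further genes of these pathways in 4 lists, 32 were tested and 2 were called (6.25%, against 9.85% of all genes). *GCSH*, the lipoyl-carrying H protein of the glycine cleavage system, had 86.0, 105 and 111 cpm in sgCtrl and 61.1, 64.2 and 58.9 cpm in sgN6AMT1. Its libraries did not overlap, and it fell by 0.71 on the log2 scale (adjusted p = 0.0193). It was called in 14 of 17 alternative settings, and not without sgCtrl replicate 2, sgCtrl replicate 3 or sgN6AMT1 replicate 2 (adjusted p up to 0.0946). *SLC25A10*, the mitochondrial dicarboxylate carrier, rose by 0.69 (adjusted p = 0.0490), with 45.7, 47.3 and 74.3 cpm against 91.7, 77.9 and 101 cpm. It was called in 6 of 17 alternative settings, which included 1 of the 6 fits that left out 1 library, and not with RLE size factors, thinning, the GC content and length correction or DESeq2 (adjusted p-values of 0.0521, 0.0951, 0.140 and 0.0842). By list, 0 of 8 other pyruvate and TCA enzymes were called (median log2 fold change 0.03), 1 of 6 genes of lipoylation and other lipoyl enzymes (0.32), 0 of 10 genes of glutamine and glutamate use (-0.16) and 1 of 8 carriers and shuttles (0.13). At an unadjusted p under 0.05 the lists without a call had 1 and 0 genes, against 26.2% of all genes.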

How the data were processed

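The samples were 6 RNA-Seq libraries of K562 cells, 3 sgCtrl and 3 sgN6AMT1, with condition and replicate taken from the labels. Replicates were independent lentiviral transductions according to the paper, and the p-values measure the spread between them. According to the labels and the paper's methods, RNA of cleared lysates was depleted of rRNA and sequenced from stranded libraries, although the molecule field of the labels reads polyA RNA. The authors trimmed reads with cutadapt (minimum length 15, quality cutoff 2), mapped them with HISAT2 to GRCh38, and deposited raw counts per gene of release 84, without normalization. How reads were counted (tool, strand, multimapping reads) is not given in the sources used here. All value columns of the table were mapped to samples (0 left out).

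From these counts, 8324 genes passed filterByExpr and were tested with glmQLFit and glmQLFTest after TMM normalization (edgeR 4.0.16, limma 3.58.1, R 4.3.3; common biological coefficient of variation 0.16), with no covariates and Benjamini-Hochberg adjustment over all genes tested. Single values per library were compared with two-sided exact permutation tests (Python 3.11.15), which with 3 libraries against 3 reach no p under 0.1. Replicates of 1 condition differed by more than sampling noise (chi-square per degree of freedom 2.04 to 11.9). Positions, lengths and GC contents are from GENCODE v44 (18850 of 19330 symbols matched, all 32 members), and promoters are from RefSeq. Lengths and GC contents are those of the Ensembl canonical transcript of each gene, whether or not K562 cells use that form. Library totals limit precision as given beside the values.

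Values are given per library for members with a p under 0.05 before or after adjustment and for the most and least abundant member of each step. Pathway genes are named where called. The members, by symbol alone, and the lists were chosen with earlier results of these data known. Alternatives were DESeq2 1.42.0 (the study's tool), other size factors, filters and thresholds, thinning to equal depth, a GC content and length correction, a replicate block, the newer quasi-likelihood method and each library left out in turn. Counts were also simulated for this comparison (8266 genes), with the common dispersion for every gene. On them the test called 82 of 95 genes with a log2 change of 1 and 92 of 92 with a log2 change of 2. It called 6 of 8079 unchanged genes. The members' log2 fold changes lay between -0.62 and 0.74, so the simulation gives no detection rate for changes of that size.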

Additional observations from a re-analysis of the deposited data

How the results depend on the processing

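Over all genes, 820 were called, against 1361 with the GC content and length correction plus replicate block, 214 and 1346 at thresholds of 0.01 and 0.1, and 220 to 951 with 1 library left out. Members called were 2, against 1 after thinning to equal depth, 0 and 4 at 0.01 and 0.1, and 0 to 3 with 1 library left out. Pathway genes called were 2, against 1 each with RLE size factors, total counts, thinning, the GC content and length correction and DESeq2, 0 and 4 at 0.01 and 0.1, and 0 to 2 with 1 library left out. The median log2 fold change of the members was -0.19 with the GC content and length correction, -0.19 with the block as well, and -0.16 to -0.074 with 1 library left out. The causes were not tested.

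With the replicate number as a block, 1195 genes and 4 members (*OGDH*, *PDHA1*, *IDH3B* and *MDH1*) were called. The deviations of same-numbered libraries correlated at -0.00052, 0.083 and 0.19, and not every library correlated best with its own number. In both conditions the mt-DNA-encoded share fell from replicate 1 to 3. It was 5.33%, 4.44% and 3.25% in sgCtrl and 1.94%, 0.829% and 0.468% in sgN6AMT1. The globin share rose, at 1.03%, 1.09% and 1.72% in sgCtrl and 1.78%, 2.34% and 3.33% in sgN6AMT1. From these values it cannot be told whether the numbers mark pairs.

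Over the genes named, 439 values under an alternative kept their direction and side of the threshold, 29 lost a call and 12 gained one. The sign of 10 uncalled members with log2 fold changes near 0 turned under some settings. With RLE size factors *PDHX* was at -0.011, *IDH3G* at -0.0055 and *FH* at -0.0089. With total counts they were at -0.017, -0.013 and -0.014. Without mt-DNA-encoded ORFs *PDHX* was at -0.0035 and *FH* at -0.0013, and with DESeq2 *PDHX*, *IDH3G* and *FH* were at -0.021, -0.019 and -0.018. *PDHX* was at -0.00017 without a filter and -0.0022 with the block, and after thinning *PDHX* and *FH* were at -0.048 and -0.0016. With the GC content and length correction, *IDH3G*, *IDH2*, *SUCLA2*, *FH*, *MDH2* and *GLUD1* were at -0.20, -0.026, 0.053, -0.0061, -0.071 and 0.0074, and with the block as well at -0.20, -0.022, 0.089, -0.0078, -0.062 and 0.0086. *GLUD1* was at 0.0022 with at least 10 counts in every library. With 1 library left out, *MPC1* ran from -0.12 to 0.20, *PDHX* from -0.084 to 0.11, *IDH3G* from -0.093 to 0.075, *IDH2* from -0.019 to 0.20, *SUCLA2* from -0.30 to 0.24, *FH* from -0.075 to 0.076, *MDH2* from -0.063 to 0.11, *GLUD1* from -0.18 to 0.070, *ACO1* from -0.025 to 0.34 and *GOT1* from -0.081 to 0.34. Other scalings moved the median of all genes by less than 0.1.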
